A study of Mus musculus with 16 samples.

Results

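The 8 liver libraries made without CDDO-Me fell into 2 sets by the kind of RNA they held. The intron-rich set was WT DMSO 1, WT DMSO 2, KO untreated 1 and KO untreated 2, and the other controls were WT DMSO 3, WT DMSO 4, KO untreated 3 and KO untreated 4, so that each set held 2 libraries of each genotype and together they made up 8 of the 16 libraries of the series. The libraries were chosen by their own content of intronic, Malat1 and Neat1 reads. Every difference between the sets in these 8 libraries is therefore a description, given as values per library and as a log2 fold change of intron-rich over other controls with its standard error, and no p-value is read from it. Tests were kept for the 8 CDDO-Me libraries, which had no part in drawing the sets, and for the question whether the difference was unequal in the 2 genotypes.

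The animals were C57BL/6 mice, wild type (WT) or lacking Nrf2 (KO), whose gene Nfe2l2 encodes a transcription factor for antioxidant and detoxification genes. All tissue was the liver of day 0, snap-frozen, from a study of partial hepatectomy. WT control mice had received DMSO at 1 µL/g by intraperitoneal injection 24 h and 1 h before the operation, and KO control mice were left untreated, so vehicle and genotype cannot be told apart among the controls. CDDO-Me (bardoxolone methyl, a triterpenoid that activates NRF2) was given to WT and KO mice at 3 mg/kg in DMSO at the same times, with 4 libraries for each genotype. Total RNA was depleted of ribosomal RNA and made into directional libraries read as pairs of 150 bases. The labels name no batch or date, do not say which part of Nfe2l2 is missing, and leave unsaid whether every library had an animal of its own, so p-values measure only the spread between these samples, which may be technical.

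Library totals were 12505924, 12002317, 14019793 and 16838813 counts in the intron-rich set, against 17010635, 26948425, 21663323 and 24194378 counts in the other controls, so that within each genotype the intron-rich libraries were the shallower. In spite of this 22856 to 23955 genes had a read in the intron-rich set and 21360 to 22720 in the other controls. WT DMSO 4 stood apart by interferon, acute phase and neutrophil genes, and WT DMSO 1, 2 and 3 held more mitochondrial ribosomal RNA (5.28%, 5.32% and 7.25% of counts) than the 5 remaining controls (0.527% to 0.873%). The genotype check was read from Nqo1, a quinone reductase under NRF2 control, which had 3.45 and 4.01 CPM in WT DMSO 1 and 2 against 0.545 and 0.457 CPM in KO untreated 1 and 2, and 4.55 and 4.31 CPM in WT DMSO 3 and 4 against 0.952 and 1.24 CPM in KO untreated 3 and 4. CPM are counts of a gene brought to a common library size, here with the trimmed mean of M-values (TMM), a scaling that holds the typical gene level between libraries. Values per library are in the order WT DMSO 1, WT DMSO 2, KO untreated 1, KO untreated 2 for the intron-rich set and WT DMSO 3, WT DMSO 4, KO untreated 3, KO untreated 4 for the other controls.

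Genes are copied into precursor RNA that carries introns, and splicing removes them in the nucleus before the finished mRNA is exported to the cytoplasm for translation. Some RNAs never leave: Malat1 is a long noncoding RNA of nuclear speckles, the bodies rich in splicing factors, and Neat1 is the scaffold of paraspeckles. Some protein-coding genes, many of them for splicing regulators, are known to keep part of their transcripts in the nucleus with an intron still in place. In hepatocytes the cytoplasmic mRNA is dominated by secreted plasma proteins, metabolic enzymes, ribosomal proteins and respiratory chain subunits. A library made from total RNA without selection for poly(A) tails reads both pools.

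Reads over microRNA genes show what kind of RNA such counts can hold. Among 6 microRNA genes of high level that were counted as higher in the intron-rich set and have a RefSeq hairpin, 3 have both mature arms listed: Mir101b, Mir29a and Mir365-2. Their hairpins are shown because each, at 97, 88 and 112 bases, is shorter than a single read of 150 bases. The capitals mark the mature arms, as listed by RefSeq on GRCm38.p6, at chr19:29135279-29135375 on the plus strand, chr6:31062660-31062747 on the minus strand and chr11:79726400-79726511 on the plus strand.
Mir101b: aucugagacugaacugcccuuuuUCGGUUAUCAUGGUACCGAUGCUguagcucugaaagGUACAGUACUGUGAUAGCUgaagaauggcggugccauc
Mir29a: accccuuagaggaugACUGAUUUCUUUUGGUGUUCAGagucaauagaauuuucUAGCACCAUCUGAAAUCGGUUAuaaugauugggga
Mir365-2: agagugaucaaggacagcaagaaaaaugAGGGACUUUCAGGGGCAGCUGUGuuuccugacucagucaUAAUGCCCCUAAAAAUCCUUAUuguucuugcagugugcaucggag
The 3′ arms, with the seed (bases 2 to 8) in capitals, shared no seed with each other.
mmu-miR-101b-3p: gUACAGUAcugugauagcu
mmu-miR-29a-3p: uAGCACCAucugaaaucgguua
mmu-miR-365-3p: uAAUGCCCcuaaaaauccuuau

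Mir29a had 2.50, 2.52, 1.96 and 1.78 CPM in the intron-rich libraries, against 1.44, 0.637, 0.401 and 0.400 CPM in the other controls, a log2 fold change of 1.72 ± 0.33 (SE). Mir101b had 2.06, 3.78, 2.61 and 2.08 CPM in the intron-rich libraries, against 1.08, 0.882, 1.00 and 0.800 CPM in the other controls (1.47 ± 0.27), and Mir365-2 had 1.03, 2.23, 2.72 and 1.78 CPM in the intron-rich libraries, against 0.794, 0.0980, 0.250 and 0.400 CPM in the other controls (2.39 ± 0.55). Every intron-rich library was above every other control for all 3, at levels of a few CPM. These counts are reads over the hairpin loci in libraries of long RNA and do not measure the mature microRNAs. Of 55 microRNA genes tested, 26 (47.3%) were counted as higher and 0 as lower, beside 43.3% of all genes that are not protein-coding and 12.6% of all genes, and 15 of the 27 with a RefSeq hairpin were among the 26.

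The rule's own markers were high in every intron-rich library. Malat1 (chromosome 19, 5795690 to 5802672, minus strand, GRCm38) had 11269.8, 13646, 14063 and 11576 CPM in the intron-rich libraries, against 4013, 5137, 4393 and 3676 CPM in the other controls, a log2 fold change of 1.56 ± 0.21 (SE). Neat1 (chromosome 19, 5824708 to 5845478, minus strand) had 14299, 23377, 11158 and 11313 CPM in the intron-rich libraries, against 6694, 3331, 3079.9 and 809.9 CPM in the other controls (2.22 ± 0.45). Together they took 2.78%, 4.16%, 3.30% and 2.68% of all counts in the intron-rich set, against 0.872%, 0.641%, 0.689% and 0.417% in the other controls. Neat1 was spread more widely, the lowest of the 8 being KO untreated 4.

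The libraries of both sets were those of liver. Of 12 hepatocyte markers, among them albumin, apolipoprotein and urea cycle genes, 0 were without reads in any library, and their summed level was 62152 to 68932 CPM in the intron-rich set, against 93537 to 140141 CPM in the other controls. In bulk tissue fewer cells of a type and less RNA per cell cannot be told apart. Of the other marker lists, Kupffer cell, endothelial and stellate cell genes were each measured in full and overlapped in their summed level between the sets, at 474 to 592 CPM in the intron-rich set against 423 to 829.95 CPM in the other controls for Kupffer cells, 732 to 827 CPM against 536 to 894 CPM for endothelium, and 329 to 527 CPM against 403 to 929 CPM for stellate cells. Neutrophil markers summed to 8.53 to 12.8 CPM in the intron-rich set, against 7.66 to 48.5 CPM in the other controls, with 5 of 14 genes under 1 CPM in all 8 libraries and S100a9, Ly6g, Elane, Ngp, Camp and Ltf at 0 in at least 1 of them.

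The RNA classes of the annotation parted the sets mainly outside protein-coding genes. Sense-intronic genes, which lie within an intron of another gene on the same strand, took 0.110%, 0.156%, 0.156% and 0.0964% of counts in the intron-rich libraries, against 0.0474%, 0.0307%, 0.0334% and 0.0322% in the other controls, a 3.61-fold difference of the means. TEC genes, loci that the annotation still lists as awaiting experimental proof, were 3.11-fold higher in share, at 0.671% ± 0.117 in the intron-rich set and 0.216% ± 0.0257 in the other controls (SD, n = 4 each). The 2 classes hold 271 and 2475 genes in the table. Of these 2746, 1660 lay in an intron of a same-strand gene, 54 overlapped an exon and 1032 had no same-strand host.

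Of 24 classes, 12 had every intron-rich library above every other control, 2 had every one below, and 10 overlapped. Antisense genes were 2.44-fold higher in share (0.217% ± 0.0347 in the intron-rich set and 0.0888% ± 0.00580 in the other controls, SD, n = 4 each). How strand was treated in the counting is not given in the sources used here, so reads of a gene and of its antisense partner may not be separable. Transcribed unprocessed pseudogenes were 2.86-fold higher, sense-overlapping genes 3.17-fold, snoRNA genes 2.20-fold and bidirectional promoter lncRNAs 1.96-fold. The shares are of raw counts, and with FPKM, the deposited values per length, 12 classes rather than 14 had no overlap. The classes with every intron-rich library below were the ribozymes, at 0.174% ± 0.0235 against 0.268% ± 0.0347, and the cytosolic ribosomal protein mRNAs, at 0.502% ± 0.0526 against 0.654% ± 0.0703, the intron-rich mean standing first in each pair (SD, n = 4 each); by FPKM both overlapped. Protein-coding counts made up 85.5%, 84.0%, 90.8% and 91.8% in the intron-rich libraries, against 86.8%, 93.7%, 94.1% and 94.1% in the other controls, and overlapped because WT DMSO 3 was low. With mitochondrially encoded genes left out of the total only, their mRNAs still being among the protein-coding counts, the values did not overlap. They were 90.8% to 94.9% in the intron-rich set and 96.5% to 97.7% in the other controls.

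**Figure D1:**
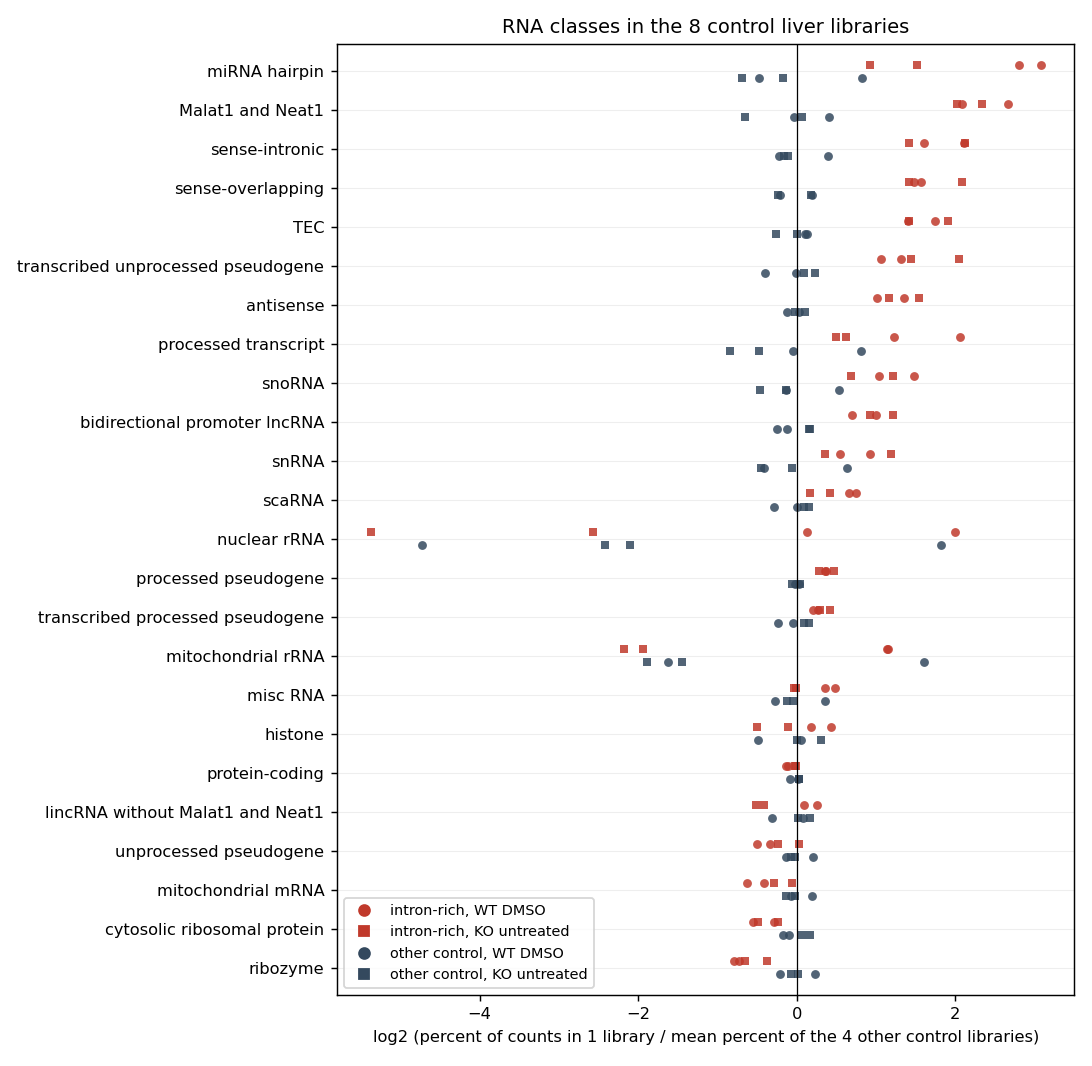
Share of counts in each of 24 RNA classes, 1 point per control library, as log2 of the share over the mean share of the 4 other controls; red points are intron-rich libraries and dark points other controls, with circles for WT DMSO and squares for KO untreated. Malat1 with Neat1, sense-intronic, TEC and antisense genes have every red point to the right of every dark point, and the ribozymes and cytosolic ribosomal proteins every red point to the left, while the ribosomal RNA classes follow WT DMSO 1 to 3 and overlap.

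The microRNA class had the widest fold (5.05) and needs its members beside it. The class had no overlap by raw counts, but overlapped by FPKM and with mitochondrially encoded genes left out. Its 3 most abundant loci, Gm23935, Gm24270 and Gm24187, held 2.65% to 77.3% of the class in the intron-rich set and 8.68% to 63.8% in the other controls, and Gm23935 had 511, 340.2, 6.48 and 2.95 CPM in the intron-rich libraries, against 104, 7.89, 4.76 and 32.001 CPM in the other controls. The libraries high for Gm23935 were WT DMSO 1, 2 and 3, those rich in mitochondrial ribosomal RNA. Without these 3 loci the class took 0.0175% to 0.0260% of counts in the intron-rich set, against 0.00482% to 0.00608% in the other controls, a 3.68-fold difference.

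Gene by gene, a gene was counted as higher or lower where it differed by 2-fold or more and every intron-rich library lay outside the range of the other controls. Of 15969 genes tested, 2016 were counted as higher, 12.6% of those tested, and 225 as lower, 1.41%. Protein-coding genes gave 675 of 12870 higher and 194 lower, and all other types together gave 1341 of 3099 higher (43.3%) and 31 lower. Of 994 TEC genes 591 were higher and 0 lower, of 156 sense-intronic genes 89 and 0, of 415 lincRNAs 159 and 1, of 290 antisense genes 112 and 1, and of 191 processed transcripts 66 and 0. The median log2 fold change was 1.35 for TEC, 1.37 for sense-intronic, 1.06 for lincRNA, 1.01 for antisense and −0.15 for protein-coding genes, beside −0.02 over all genes.

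The split between higher and lower depended on the scaling. With library totals in place of TMM the median over all genes moved from −0.02 to 0.44, 3629 genes were counted as higher and 5 as lower, and lower genes were 0.138% of those counted in place of 10.04%. Since that scaling moved genes by nearly the same amount, those counted could hardly change sign. The 225 lower genes stayed negative and the 2016 higher genes positive. Without any fold minimum, 19.6% of genes had all 4 intron-rich libraries above the other controls and 19.6% all 4 below, and by library totals these shares were 35.6% and 2.79%. With the counts of the 8 libraries thinned to the same total of 12002317, 1807 genes were higher and 162 lower. At the edge of the rule, Vegfa and Ttc39c (1.00 each) were just inside and Plekha6 and Ppcdc (1.00 each, by less than the last digit shown) just outside among the higher genes, and Rps4l and Mmgt1 (−1.00 each) inside with Ppia and Snrpd2 (−1.00 each) outside among the lower.

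The small noncoding RNAs of known function described here had negative log2 fold changes, and some overlapped between the sets. Not every small RNA was negative, the snRNA Rnu1a1 having 0.45 ± 0.33 with overlap. Rpph1, the RNA of ribonuclease P, which trims the 5′ ends of tRNA precursors, had 1203, 1190.5, 1113 and 1515 CPM in the intron-rich libraries, against 3274, 2845, 2396 and 2494 CPM in the other controls, a log2 fold change of −1.13 ± 0.17 (SE). No intron-rich library reached the lowest of the other controls. Rmrp, the related RNA of ribonuclease MRP, had 221, 245, 186 and 259.7 CPM in the intron-rich libraries, against 582, 220.2, 360.3 and 415 CPM in the other controls (−0.79 ± 0.27) and overlapped at KO untreated 2 and WT DMSO 4. The 7SL RNA of the signal recognition particle, which guides secreted proteins to the endoplasmic reticulum, is annotated in near-identical copies that share reads. Its copy Rn7s2 had 238, 227, 236 and 336 CPM in the intron-rich libraries, against 827, 577, 484 and 344 CPM in the other controls (−1.06 ± 0.26), and Rn7s6 was lower too (−1.08), while Rn7s1 (−1.05) overlapped by KO untreated 2 and KO untreated 4. Rn7sk, the RNA that holds the elongation factor P-TEFb inactive, had 3467 to 5846 CPM in the intron-rich libraries, against 4624 to 6735 CPM in the other controls (−0.20 ± 0.18).

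The sense-intronic and TEC genes of highest level were Gm42427, Gm38070, Gm47164, Gm47031 and Gm48271. Gm47164 (chromosome 10, 103207748 to 103213437), in an intron of Lrriq1, had 225, 249, 241 and 166 CPM in the intron-rich libraries, against 101, 113, 72.8 and 60.3 CPM in the other controls (1.38 ± 0.17), with all 4 intron-rich libraries above the other controls. Gm42427, which has no same-strand host, had 197, 205, 167 and 163 CPM in the intron-rich libraries, against 182, 179, 114 and 113 CPM in the other controls (0.34 ± 0.11), and its sets overlapped. Gm47031 (1.53) and Gm48271 (1.32) were counted as higher, and Gm38070, in an intron of the interleukin receptor gene Il1r1, overlapped widely (0.81 ± 0.49).

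Intronic loci can be set against the gene that hosts them, since the locus lies inside it on the same strand and both are counted in the same library. There were 824 pairs of a sense-intronic or TEC locus inside an intron and a tested host, with 556 hosts. The loci had a median log2 fold change of 1.38 and their hosts one of −0.03, and the loci exceeded their host in 806 pairs (97.8%), by a median of 1.33 (middle 50% of pairs 0.96 to 1.71). By library totals the medians were 1.84 for loci and 0.42 for hosts. Of the loci 822 had a positive and 2 a negative log2 fold change, and 501 were counted as higher. Over all TEC genes 59.5% were higher, over all sense-intronic genes 57.1% and over all genes 12.6%. The loci hold intronic reads, by which the sets were drawn, so their high values follow in part from that choice. Of the hosts 264 had a positive and 292 a negative value. Counted as higher were 25 of the 556 hosts and as lower 4, beside 5.24% and 1.51% of all protein-coding genes. In 289 pairs the host was below 0 while the locus was higher by 2-fold or more.

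Single pairs with loci of high level show the same arrangement. The loci in Mcm9 and Ccdc15 had more counts than their hosts, whereas the median pair had fewer. Gm47739 (chromosome 10, 53570625 to 53575756, minus strand) lies 60.8% of the way along Mcm9, a helicase of meiosis and DNA repair, and had 84.6, 112, 111 and 73.4 CPM in the intron-rich libraries, against 41.6, 36.6, 27.7 and 24.5 CPM in the other controls (1.57 ± 0.18). Mcm9 itself had 11.0, 10.6, 11.7 and 8.23 CPM in the intron-rich libraries, against 8.80, 7.497, 9.72 and 6.76 CPM in the other controls (0.34 ± 0.18). All 4 intron-rich libraries were above the other controls for the locus, and the host overlapped. Gm47652 (chromosome 9, 37329767 to 37334429, minus strand), in an intron of Ccdc15, a coiled-coil protein gene, had 52.9, 73.5, 67.6 and 57.1 CPM in the intron-rich libraries, against 26.8, 26.2, 24.2 and 22.3 CPM in the other controls (1.34 ± 0.13), and Ccdc15 had a log2 fold change of 0.58 ± 0.19. A930004J17Rik (chromosome 4, 131878628 to 131883237), within Srsf4, a splicing factor, had 48.9, 59.5, 50.1 and 35.9 CPM in the intron-rich libraries, against 24.6, 20.8, 14.5 and 17.1 CPM in the other controls (1.35 ± 0.15), and Srsf4 0.61 ± 0.13.

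In some hosts the locus and the host pointed in opposite directions. Gm37084 in Mapkapk2, a stress kinase, had a log2 fold change of 1.78 ± 0.47 with a host value of −0.48 ± 0.22, though the locus overlapped between the sets. Gm38357 in Noct, a gene of rhythmic expression, had 1.64 ± 0.58 with a host value of 0.74 ± 0.24, both positive. Loci close to their host or to 0 were also present, such as Gm37767 in Dnm3 (locus 0.97, host 0.95) and Gm48161 in Agtr1a, the angiotensin receptor (locus 0.28 ± 0.18, host −0.28 ± 0.16).

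The medians differed little with the place of a locus in its host. With hosts divided into 3 equal parts from the transcription start, loci in the 5′ part had a median log2 fold change of 1.38 (352 pairs), those in the middle 1.35 (283) and those in the 3′ part 1.44 (189). Pairs required a tested protein-coding host, and the 326 tested loci of both classes outside the pairs had a median of 1.27. These include any that overlapped an exon of their host or lay in a noncoding host. Per library, the median log2 ratio of locus to host counts was −3.36, −3.17, −3.13 and −3.38 in the intron-rich set, against −4.07, −4.17, −4.25 and −4.39 in the other controls, with no overlap. This ratio is not corrected for length and serves only to compare libraries.

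**Figure D2:**
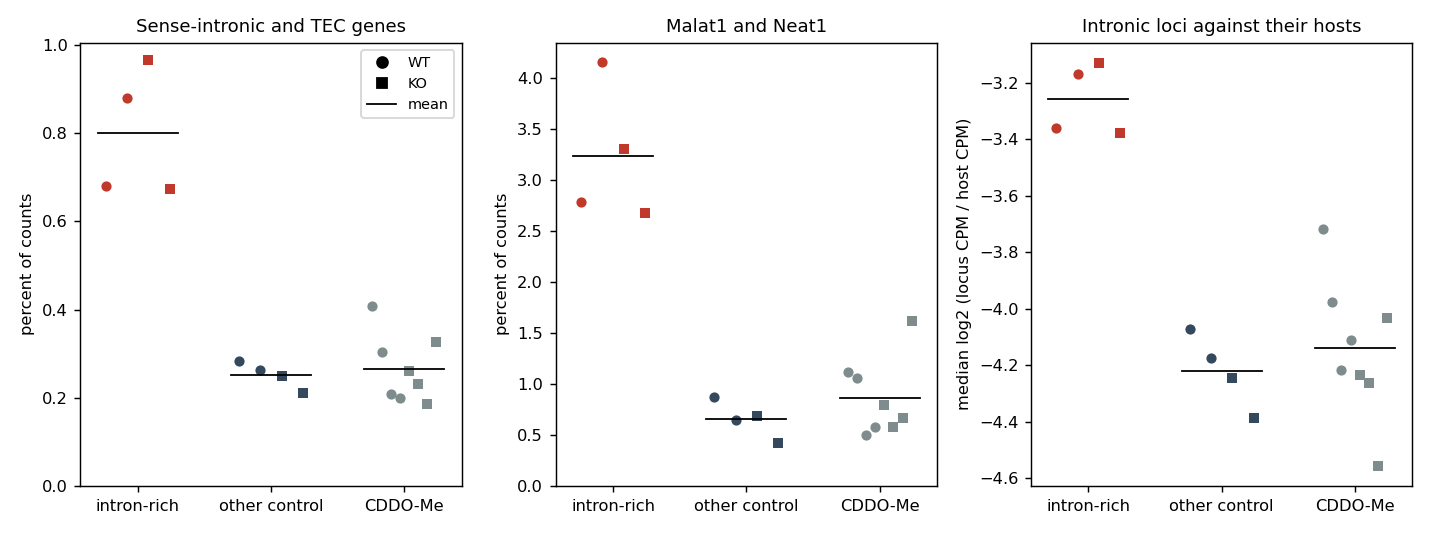
For each library, the percent of counts in sense-intronic and TEC genes (left), the percent in Malat1 and Neat1 (middle) and the median log2 ratio of intronic locus to host CPM over pairs (right), for the intron-rich set, the other controls and the 8 CDDO-Me libraries, with circles for WT, squares for KO and lines for means. The intron-rich libraries lie above all other controls in each panel, and the CDDO-Me libraries lie between 0.186% and 0.407% in the left panel.

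**Figure D3:**
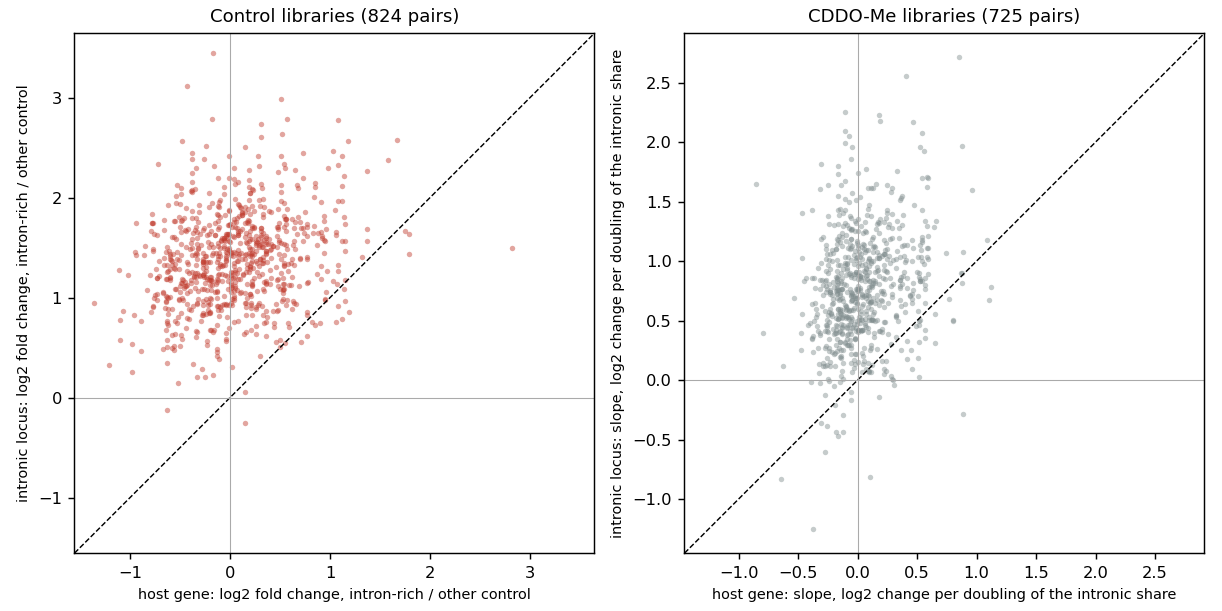
Each point is a pair of an intronic locus (vertical axis) and its host gene (horizontal axis), as log2 fold change of intron-rich over other controls in the 8 control libraries (left, 824 pairs) and as slope on the intronic share in the 8 CDDO-Me libraries (right, 725 pairs), with the dashed line where both are equal. In the left panel 97.8% of points lie above the line and in the right panel 93.1%, and the hosts are centred near 0.

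Long noncoding RNAs that stay in the nucleus or act on chromatin had a positive median. Of 16 tested, leaving out Malat1 and Neat1, 9 were counted as higher (12.6% over all genes, 43.3% of genes not protein-coding and 38.3% of lincRNAs) and 0 as lower, with a median of 1.11 (1.57 by library totals). Firre, an X-linked RNA that organises nuclear contacts between chromosomes, had 105, 107, 97.1 and 74.5 CPM in the intron-rich libraries, against 34.4, 28.03, 23.6 and 21.5 CPM in the other controls (1.84 ± 0.13). Airn, the antisense RNA of the imprinted Igf2r locus, had 3.75, 3.41, 5.94 and 3.35 CPM in the intron-rich libraries, against 0.794, 0.392, 1.202 and 1.02 CPM in the other controls (2.31 ± 0.31). Jpx, an RNA that activates Xist, had 12.9, 17.1, 15.9 and 8.18 CPM in the intron-rich libraries, against 6.64, 5.78, 3.76 and 2.84 CPM in the other controls (1.56 ± 0.25), and Mir99ahg, host of a microRNA cluster, 8.45, 8.83, 22.0 and 15.6 CPM in the intron-rich libraries, against 5.12, 0.980, 6.06 and 5.78 CPM in the other controls (1.61 ± 0.39). In all 4 the sets did not overlap.

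The other members ranged widely. Kcnq1ot1, the imprinted antisense RNA of the Kcnq1 domain, had 214 to 303 CPM in the intron-rich libraries, against 81.6 to 193 CPM in the other controls (1.21 ± 0.26), with WT DMSO 4 the highest of the other controls. Tug1 had 33.9 to 49.8 CPM in the intron-rich libraries, against 34.1 to 49.6 CPM in the other controls (0.06 ± 0.10) and overlapped. Gm26917, on chromosome 17, was the one member below 0, at 12461, 9229.6, 4639.6 and 6722 CPM in the intron-rich libraries, against 12622, 17566, 14893 and 15234 CPM in the other controls (−0.94 ± 0.29). It lies at 39843013 to 39846341, beside the annotated ribosomal RNA gene CT010467.1 (39846353 to 39848827, opposite strand). Whether the counts of Gm26917 hold ribosomal RNA reads was not tested.

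Genes known for transcripts with detained introns were mostly higher. Of 39 tested, 38 had a positive log2 fold change, with a median of 0.70 (1.17 by library totals). All 4 intron-rich libraries were above the other controls for 25 (19.6% over all genes). Counted as higher were 10 of the 39 (12.6% over all genes) and as lower 0 (1.41%). Leng8, related to a nuclear mRNA export factor, had 172, 179, 180.4 and 132 CPM in the intron-rich libraries, against 54.2, 37.6, 43.7 and 39.7 CPM in the other controls (1.92 ± 0.15). Clk2, a kinase that phosphorylates SR splicing proteins, had 28.3, 32.5, 30.02 and 24.3 CPM in the intron-rich libraries, against 11.2, 10.1, 9.42 and 9.16 CPM in the other controls (1.53 ± 0.12). Ccnl2, a cyclin of nuclear speckles, had 247, 299.6, 256 and 205 CPM in the intron-rich libraries, against 119, 111, 98.8 and 75.1 CPM in the other controls (1.33 ± 0.14), and Pnisr, an SR-like protein, 119, 135, 134 and 102 CPM in the intron-rich libraries, against 58.9, 47.4, 50.3 and 42.2 CPM in the other controls (1.30 ± 0.14). For each of these the lowest intron-rich library was above the highest other control.

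Other genes of nuclear work had few members counted. Core splicing components had a median of −0.19 (0.27 by library totals, so the sign turns with the scaling). All 4 intron-rich libraries were below for 10 of 31 (19.6% over all genes). Of the 31, 1 was counted as higher (12.6% over all genes) and 0 as lower. The exception was Snrnp70, the U1 snRNP protein whose own pre-mRNA has regulated introns, at 131, 137, 116 and 88.8 CPM in the intron-rich libraries, against 51.3, 47.2, 43.4 and 38.5 CPM in the other controls (1.38 ± 0.12). Large chromatin regulators had a median of 0.15 (0.61 by library totals), with 1 of 42 higher, Tet2, an enzyme that oxidises methylcytosine, at 54.7, 59.8, 81.6 and 59.3 CPM in the intron-rich libraries, against 28.5, 32.4, 27.4 and 36.9 CPM in the other controls (1.02 ± 0.15). snoRNA host genes had a median of 0.27 (0.74), with Snhg20 the 1 of 14 higher (1.28 ± 0.20). The 43 histone genes tested, whose symbols begin with Hist, had a median of −0.45 (0.00 by library totals) with 0 higher and 0 lower. Histone genes with other symbols were not in this list. The histone median was 0.28 within WT and −0.80 within KO, a difference that was not tested.

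Among protein-coding genes with a mean of at least 10 CPM the largest difference was Pnpla3, a lipid droplet hydrolase, at 33.3, 11.5, 16.2 and 39.8 CPM in the intron-rich libraries, against 1.804, 2.01, 3.91 and 8.27 CPM in the other controls (2.81 ± 0.50). Its 4 intron-rich libraries ranged more than 3-fold but all exceeded the other controls. Mlxipl encodes ChREBP, the carbohydrate-sensing regulator of lipogenesis, and had 569, 834, 569.8 and 526 CPM in the intron-rich libraries, against 243, 179, 164 and 163 CPM in the other controls (1.74 ± 0.16). Gckr, the glucokinase regulatory protein, had 362, 395, 474 and 335 CPM in the intron-rich libraries, against 193, 148, 178 and 172 CPM in the other controls (1.18 ± 0.15). Hsd3b7, an enzyme of bile acid synthesis, had 9.48, 10.4, 12.1 and 5.33 CPM in the intron-rich libraries, against 2.24, 1.37, 1.45 and 1.96 CPM in the other controls (2.41 ± 0.30). The pathways to which these belong had medians near 0 or below, of 0.02 for lipogenesis (22 genes, 2 higher and 1 lower), −0.26 for glucose metabolism (24 genes, 1 higher) and −0.11 for bile acid genes (22 genes, 1 higher), which by library totals were 0.46, 0.20 and 0.35. The lower lipogenic gene was Elovl2, an elongase of polyunsaturated fatty acids, at 300.1, 269, 406 and 459.8 CPM in the intron-rich libraries, against 531, 515, 806 and 1116 CPM in the other controls (−1.01 ± 0.14).

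Further coding genes at the top were of mixed function. Pabpn1, the nuclear poly(A)-binding protein, had 18.1, 18.2, 16.3 and 13.8 CPM in the intron-rich libraries, against 4.33, 2.74, 5.41 and 4.40 CPM in the other controls (1.98 ± 0.22). Josd2, a deubiquitinase, had 67.4, 97.9, 84.1 and 84.7 CPM in the intron-rich libraries, against 21.6, 18.5, 26.4 and 28.05 CPM in the other controls (1.84 ± 0.16). Klhdc8b (1.85), Adrb3, the beta-3 adrenergic receptor (1.91), Sult5a1, a sulfotransferase (1.87), Col27a1, a fibrillar collagen (1.74), and Ugt1a6a, a glucuronosyltransferase that shares its last exons with the other Ugt1a genes and is uncertain for that reason (1.91), completed the 10 largest. None of the 10 overlapped between the sets.

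Pseudogenes were 4 of the 6 named noncoding genes of largest positive difference, and each is uncertain where a functional copy shares reads. Cyp2d37-ps had 153, 226, 198 and 163 CPM in the intron-rich libraries, against 69.8, 14.3, 46.7 and 45.9 CPM in the other controls (2.07 ± 0.41), Mup-ps13 8.60, 21.1, 28.9 and 19.2 CPM in the intron-rich libraries, against 6.35, 0.392, 4.86 and 2.53 CPM in the other controls (2.46 ± 0.65) and Cyp21a2-ps 26.1, 27.6, 14.4 and 15.8 CPM in the intron-rich libraries, against 7.07, 6.96, 4.46 and 2.36 CPM in the other controls (2.04 ± 0.19). Slc2a4rg-ps (1.88) and Ppnr, a sense-intronic gene within Tcf7l2 (2.00), were also among the 6 largest. Processed pseudogenes, which lack introns, divided: 157 of 523 were higher and 16 lower. Those lower included ribosomal protein copies, with Rpl9-ps4 at 17.5, 13.8, 16.3 and 22.8 CPM in the intron-rich libraries, against 33.9, 46.6, 45.1 and 40.5 CPM in the other controls (−1.25 ± 0.17), Rps3a2 at −1.19 ± 0.17 and Rpsa-ps10 at −1.01 ± 0.20. Rps4l (−1.00 ± 0.19) belongs to another type, the transcribed processed pseudogenes, where it was the 1 of 49 counted as lower.

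Messenger RNAs of the translation machinery had negative values in nearly every member. Of 77 ribosomal protein genes, 76 had a negative log2 fold change, with a median of −0.79 (−0.34 by library totals). All 4 intron-rich libraries were below the other controls for 66 (19.6% over all genes). Counted as lower were 6 (1.41% over all genes) and as higher 0 (12.6%). By library totals 33 rather than 66 had all 4 below (2.79% over all genes). Rps3, of the small subunit, had 87.0, 65.0, 69.3 and 104 CPM in the intron-rich libraries, against 168, 195, 187 and 200.3 CPM in the other controls (−1.21 ± 0.16). Rps21 (−1.14 ± 0.17), Rps23 (−1.09 ± 0.15) and Rps14 (−1.02 ± 0.15) were close to it, and 3 of the 6 were counted without WT DMSO 4. Translation factors had a median of −0.73 (−0.27 by library totals), 28 of 29 being negative. All 4 intron-rich libraries were below for 27 (19.6% over all genes), and by library totals for 10 (2.79%). The 1 counted was Eif6, which keeps ribosomal subunits apart, at 36.8, 34.7, 23.6 and 26.0 CPM in the intron-rich libraries, against 46.5, 119, 46.5 and 49.2 CPM in the other controls (−1.08 ± 0.25), and it was not counted without WT DMSO 4 (−0.74).

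Respiratory chain genes had a like median. Nuclear-encoded subunits had a median of −0.80 (−0.35 by library totals), with 75 of 76 negative and 5 counted as lower (1.41% over all genes). All 4 intron-rich libraries were below the other controls for 72 (19.6% over all genes), and by library totals for 8 (2.79%). Ndufa1, of complex I, had 19.5, 15.3, 16.5 and 24.1 CPM in the intron-rich libraries, against 36.9, 38.9, 46.0 and 44.4 CPM in the other controls (−1.14 ± 0.14). Cox4i1, of cytochrome c oxidase, had 149, 123, 131 and 175 CPM in the intron-rich libraries, against 281, 306, 322 and 321 CPM in the other controls (−1.09 ± 0.13), and Ndufb6 and Cox7a2 had log2 fold changes of −1.04 ± 0.15 and −1.02 ± 0.14. The 13 mRNAs encoded in mitochondrial DNA had a median of −0.77 (−0.31), with mt-Nd3 at 134, 163, 219.5 and 339 CPM in the intron-rich libraries, against 378, 587, 531 and 472 CPM in the other controls (−1.27 ± 0.24) the 1 counted as lower. Their median was −1.05 within WT and −0.40 within KO. The difference between genotypes was not tested for this list.

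Secreted plasma proteins, the most abundant hepatocyte messages, were all below 0. Of 38, 30 had all 4 intron-rich libraries below (19.6% over all genes), and 18 by library totals (2.79%). The median was −0.86 (−0.41 by library totals). With all 8 libraries 9 were counted as lower (1.41% over all genes), and 3 without WT DMSO 4. Apoh, beta-2 glycoprotein I, had 940.0, 810.1, 881 and 1029 CPM in the intron-rich libraries, against 1983, 1867, 1920.1 and 2043 CPM in the other controls (−1.10 ± 0.13). Apoe, a lipoprotein component, had 8779, 7077, 5649.5 and 7211 CPM in the intron-rich libraries, against 13638, 14662, 14663 and 16411 CPM in the other controls (−1.05 ± 0.22). Fga, the fibrinogen alpha chain, had 4536, 3938, 2790.3 and 3946 CPM in the intron-rich libraries, against 8096, 13189.7, 7249.6 and 5953 CPM in the other controls (−1.15 ± 0.24), and C3, the central complement component, 8575, 5874, 5589 and 7568 CPM in the intron-rich libraries, against 13039.6, 18150.0, 12480.0 and 14588 CPM in the other controls (−1.08 ± 0.24). WT DMSO 4 was the highest library for Fga and C3, which were not counted without it (−0.97 and −0.98), while Apoh and Apoe were (−1.12 and −1.10).

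Genes of the secretory pathway and of protein turnover followed. Endoplasmic reticulum and Golgi genes had a median of −0.80 (−0.34 by library totals), with 36 of 36 negative. All 4 intron-rich libraries were below for 28 (19.6% over all genes), and by library totals for 6 (2.79%). Counted as lower were 6 of the 36 with all 8 libraries (1.41% over all genes) and 0 without WT DMSO 4. Pdia3, a disulfide isomerase, had 235, 173, 175 and 269 CPM in the intron-rich libraries, against 412, 491, 413 and 450.3 CPM in the other controls (−1.05 ± 0.17), and Canx, the chaperone calnexin, had 296, 250.2, 269 and 374 CPM in the intron-rich libraries, against 577, 660.3, 597 and 569 CPM in the other controls (−1.02 ± 0.15), with Pdia6 at −1.07 and Sdf2l1 at −1.02. Proteasome subunits had a median of −0.70 (−0.24), with 31 of 31 negative. All 4 intron-rich libraries were below for 29 (19.6% over all genes), and by library totals for 16 (2.79%). Psmb4 had 67.2, 53.3, 46.9 and 68.9 CPM in the intron-rich libraries, against 117, 122, 124 and 126 CPM in the other controls (−1.05 ± 0.14). Psma5 had a log2 fold change of −1.03 ± 0.15 and was not counted without WT DMSO 4 (−0.90). Lysosomal genes had a median of −0.70 (−0.24), with Ctsz, cathepsin Z, the 1 of 26 lower (−1.03 ± 0.14). Heat shock genes had a median of −0.78 (−0.33), with 0 of 16 counted.

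The lists of fatty acid oxidation, P450 and xenobiotic, urea and amino acid, and cholesterol synthesis genes had 0 to 2 members counted. All of these were lower, beside 1.41% of all genes counted as lower. Fatty acid oxidation genes had a median of −0.76 (−0.30 by library totals), with Acot1, an acyl-CoA thioesterase, at 7.49, 6.08, 3.38 and 4.72 CPM in the intron-rich libraries, against 13.3, 9.46, 10.7 and 16.9 CPM in the other controls (−1.26 ± 0.28) the 1 of 29 lower. Cytochrome P450 and other xenobiotic enzymes had a median of −0.67 (−0.22), with 2 of 34 lower. Cyp3a11, the main drug-metabolising P450 of the mouse liver, had 2439, 2047, 1679 and 2668 CPM in the intron-rich libraries, against 5918, 3285, 4342 and 4853 CPM in the other controls (−1.06 ± 0.24), and Cyp2c55 4.48, 5.49, 4.96 and 6.40 CPM in the intron-rich libraries, against 9.38, 8.77, 11.7 and 16.4 CPM in the other controls (−1.09 ± 0.19). Urea cycle and amino acid genes had a median of −0.35, which by library totals was 0.10, and 0 of 32 were counted. Cps1, the entry enzyme of the urea cycle, had 6247 to 8492 CPM in the intron-rich libraries, against 7561 to 13144 CPM in the other controls (−0.43 ± 0.21). Cholesterol synthesis genes had a median of −0.36 (0.08) with 0 of 24 counted.

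**Figure D4:**
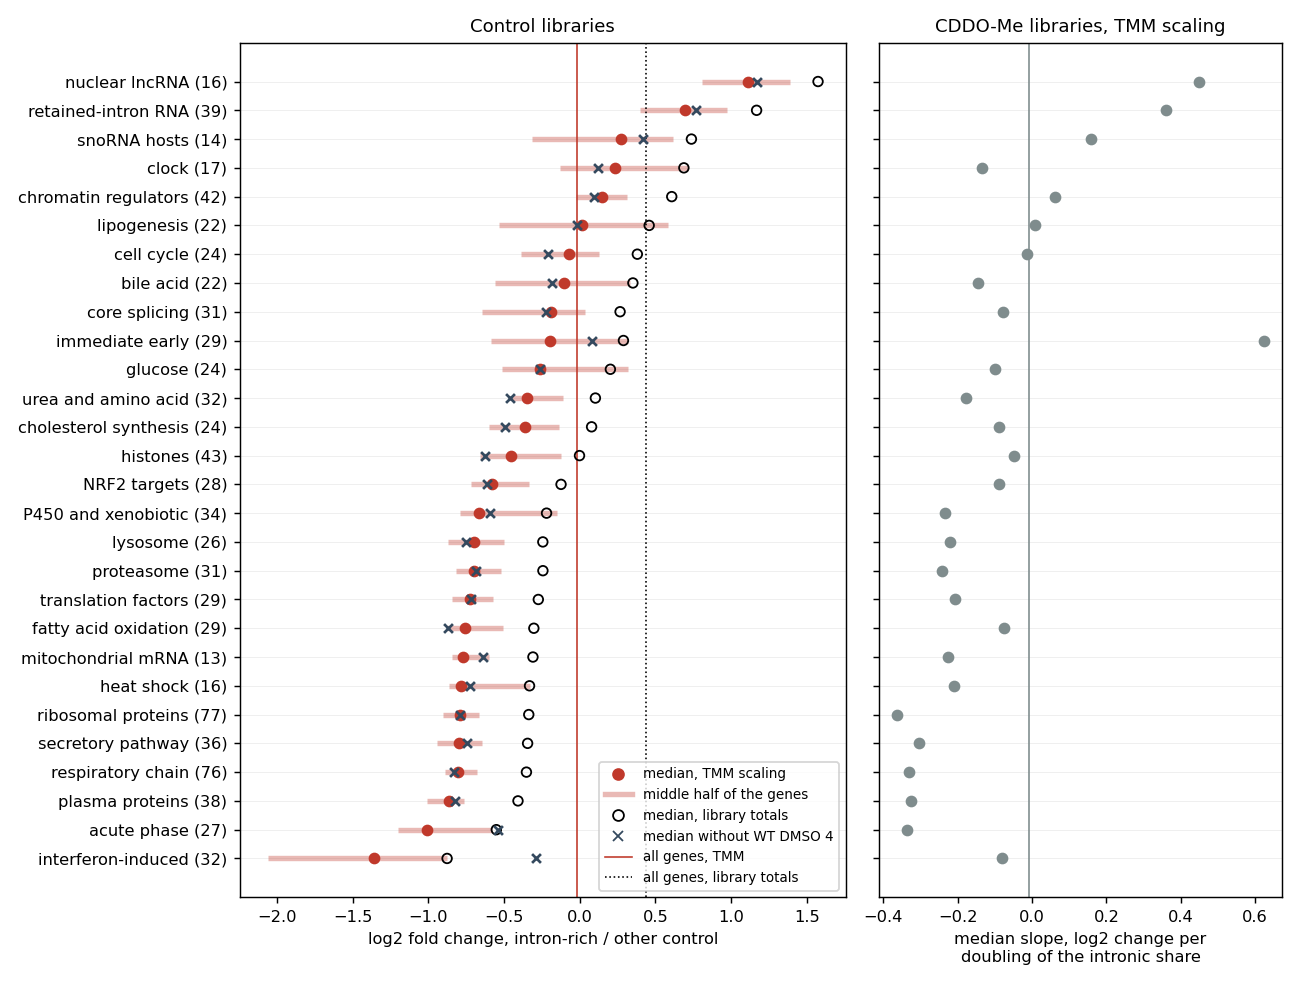
Median log2 fold change of intron-rich over other controls for each gene list (left; number of genes tested in brackets), with TMM scaling (filled red circles, bars for the middle 50% of genes), library totals (open circles) and without WT DMSO 4 (crosses), and the median slope on the intronic share in the 8 CDDO-Me libraries (right); vertical lines give the median of all genes. Nuclear lncRNAs and detained-intron genes lie to the right of the line in both panels, ribosomal, respiratory and plasma protein genes to the left, and interferon genes move from −1.36 to −0.29 without WT DMSO 4.

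Interferon-induced and acute phase genes had the most negative medians of the pathway lists, and WT DMSO 4 held much of that difference. The 32 interferon genes had a median of −1.36 with all libraries and −0.29 without WT DMSO 4. With all libraries 4 were counted as lower (1.41% over all genes) and 0 as higher. Without WT DMSO 4 they had 2 lower and 3 higher. Isg15, a ubiquitin-like protein, had 3.60, 2.52, 4.09 and 4.37 CPM in the intron-rich libraries, against 4.47, 97.9, 5.61 and 15.1 CPM in the other controls (−2.65 ± 0.97, and −1.05 without WT DMSO 4). Igtp, an interferon-induced GTPase, had 16.5, 16.7, 22.1 and 17.9 CPM in the intron-rich libraries, against 23.7, 173, 26.1 and 109.8 CPM in the other controls (−2.16 ± 0.63, and −1.32 without it). WT DMSO 4 and KO untreated 4 were the high libraries for both. The 27 acute phase genes had a median of −1.01 with all libraries and −0.54 without WT DMSO 4, and 7 against 0 were counted. Crp, C-reactive protein, had 266, 289, 268 and 269 CPM in the intron-rich libraries, against 494, 2678, 487 and 402 CPM in the other controls (−1.62 ± 0.55, and −0.79 without it), and Hp, haptoglobin, 4684, 2781, 2161 and 3083 CPM in the intron-rich libraries, against 4946, 11683, 4956 and 6574 CPM in the other controls (−1.15 ± 0.31, and −0.87).

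The 10 coding genes of largest negative difference all had their highest value in WT DMSO 4. Beside Isg15, Igtp and Crp they were St6gal1, a sialyltransferase, the GTPases Iigp1 and Irgm1, Tgm2, a transglutaminase, Apcs, serum amyloid P, the chemokine Ccl9 and the magnesium transporter Slc41a2. St6gal1 had 46.9, 63.8, 41.6 and 60.5 CPM in the intron-rich libraries, against 84.9, 353, 116 and 124 CPM in the other controls, a log2 fold change of −1.61 ± 0.40 (SE). Without WT DMSO 4, Isg15, Igtp, St6gal1 and Ccl9 were still counted as lower, and the other 6 were not. Over all lower genes, 142 of 225 were highest in WT DMSO 4. Without it 177 genes were lower, and 110 genes were in both, 48.9% of the 225 and 62.1% of the 177. Among the higher genes 1808 were in both, 89.7% of the 2016 and 80.4% of the 2250 counted without it.

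Genes that read the study's own pathway were not counted. Nfe2l2 had 46.1, 70.8, 55.4 and 37.4 CPM in the intron-rich libraries, against 59.5, 79.9, 21.1 and 22.2 CPM in the other controls (0.42 ± 0.30), so that KO untreated 1 and 2 lay above KO untreated 3 and 4, and KO untreated 1 within the range of WT. Since the missing part of the gene is not stated, these counts do not check the genotype. Of 28 NRF2 targets 0 were higher or lower, with a median of −0.58 (−0.12 by library totals). Gstp1, a glutathione transferase, had 639.7, 664, 455 and 649 CPM in the intron-rich libraries, against 1235, 1396, 673 and 705 CPM in the other controls (−0.67 ± 0.19), and Fth1, the ferritin heavy chain, had 489, 445, 248 and 349 CPM in the intron-rich libraries, against 731, 744, 554 and 524 CPM in the other controls (−0.76 ± 0.14). The targets' score, the mean over genes of log2(CPM + 1) relative to the gene's own mean over the 8 libraries, was 0.37, 0.29, −0.94 and −0.72 in the intron-rich set, against 0.79, 0.73, −0.37 and −0.16 in the other controls, lower in the intron-rich libraries of each genotype.

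Few cell type markers were counted. Of 12 hepatocyte markers 11 were negative with a median of −0.55 (−0.10 by library totals), and 12 pericentral and 12 periportal markers had medians of −0.62 (−0.16) and −0.43 (0.02). Kupffer cell markers had a median of −0.25 (0.20), endothelial markers −0.11 (0.34), stellate cell markers −0.67 (−0.22), erythroid markers −0.69 (−0.25) and the 3 lymphocyte markers tested 0.47. Within WT and within KO the medians were 0.22 and −0.64 for Kupffer cell, 0.17 and −0.30 for endothelial and −0.18 and −0.93 for stellate cell markers, and the difference between genotypes was not tested for these lists. Single markers counted were Cyp3a11, Egfl7 and Krt8. Cyp3a11, the 1 of 12 hepatocyte markers counted, was lower, with its values given above. Egfl7, an endothelial secreted protein, was higher at 22.9, 24.0, 49.8 and 33.1 CPM in the intron-rich libraries, against 13.9, 9.02, 16.4 and 18.4 CPM in the other controls (1.15 ± 0.18). Krt8, a keratin of epithelial cells, was lower at 184, 109.6, 90.4 and 133 CPM in the intron-rich libraries, against 246, 436, 208 and 274 CPM in the other controls (−1.16 ± 0.24, and not counted without WT DMSO 4 at −0.98). Immediate early genes (median −0.19, 0.29 by library totals), clock genes (0.23, 0.69) and cell cycle genes (−0.07, 0.38) had 0 members counted. Zfp36, a decay factor of unstable mRNAs and among the immediate early genes of highest level, had 81.6 to 248 CPM in the intron-rich libraries, against 48.1 to 164 CPM in the other controls (0.67 ± 0.25). Glul, the pericentral glutamine synthetase, had 533 to 597 CPM in the intron-rich libraries, against 531 to 1421 CPM in the other controls (−0.86 ± 0.25), and Clec4f, a Kupffer cell lectin, had 73.8 to 83.8 CPM in the intron-rich libraries, against 51.4 to 95.8 CPM in the other controls (0.03 ± 0.18). The part of cell type content in these differences was not tested.

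Gene structure graded the difference among protein-coding genes. In 10 equal bins by exon number, the 1287 genes with the fewest exons (1 to 3) had a median log2 fold change of −0.41 and the 1287 with the most (23 to 347) one of 0.11, and by library totals 0.04 and 0.57. By exonic length the lowest bin (165 to 1805 bases) had a median of −0.56 and the highest (10068 to 123179 bases) one of 0.12. Gene span gave −0.47 and 0.07 at its ends, and the share of the span made of intron −0.28 and −0.05. Within 3 groups by exonic length, in which length still varied, genes with the most exons had higher medians than those with the fewest. For the fewest and the most exons these were −0.46 and −0.28 from 165 to 3385 bases. They were −0.26 and 0.05 from 3386 to 5949 bases, and −0.09 and 0.12 from 5950 to 123179 bases. In the shortest group the middle exon bin had −0.46, like the lowest. Across 12870 genes, which are not independent replicates, Spearman's rho with the difference was 0.29 for exonic length, 0.27 for exon number, 0.18 for span and 0.04 for the intron share of the span. The gap between the top and the bottom bin by exon number, 0.52 in the fit and 0.53 by library totals, was 0.30, 0.40, 0.68 and 0.42 in the 4 intron-rich libraries taken singly.

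**Figure D5:**
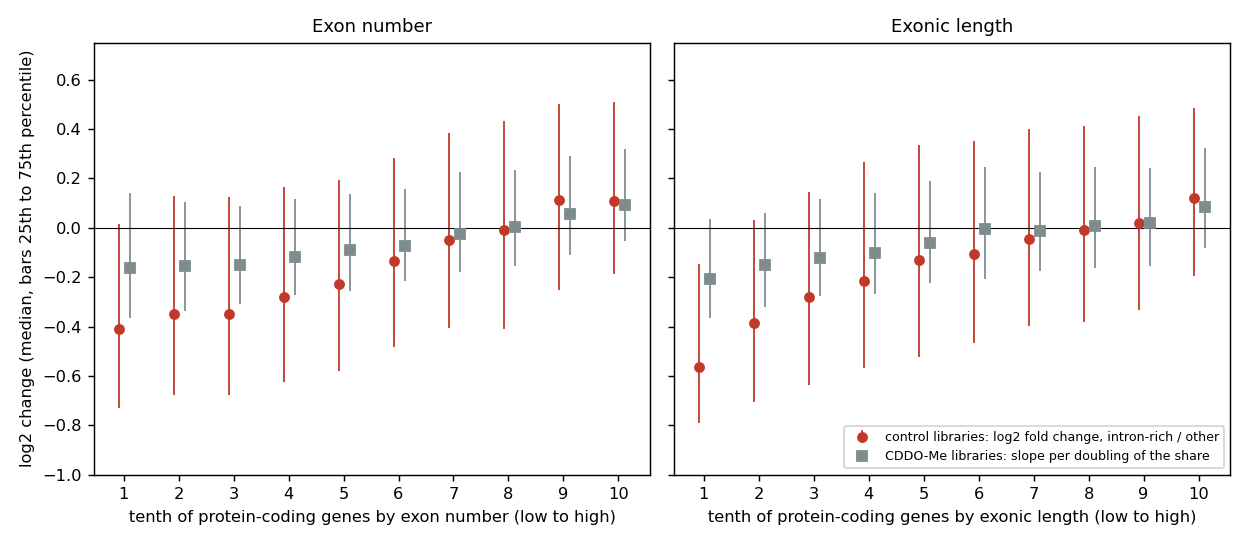
Median change of protein-coding genes in 10 bins of exon number (left) and exonic length (right), with bars from the 25th to the 75th percentile; red circles are log2 fold changes of intron-rich over other controls and grey squares slopes on the intronic share in the 8 CDDO-Me libraries. Both measures climb over the bins, between −0.41 and 0.11 for the log2 fold change and between −0.16 and 0.09 for the slope by exon number.

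The CDDO-Me libraries allowed the same pattern to be looked for in livers that had no part in drawing the sets. Their sense-intronic and TEC share was 0.407%, 0.303%, 0.208% and 0.201% for WT CDDO-Me libraries 1 to 4, and for the KO CDDO-Me libraries 0.260%, 0.230%, 0.186% and 0.327%, all below the intron-rich controls (0.673% to 0.967%). Malat1 had 4955, 3824, 3127 and 3068 CPM in WT CDDO-Me 1 to 4 and 3929.5, 3783, 3514 and 6256 CPM in KO CDDO-Me 1 to 4. WT CDDO-Me 1 and KO CDDO-Me 4, the libraries with the largest intronic share of their genotype, were also the highest for Malat1 in their genotype. CPM in the CDDO-Me libraries were scaled among those 8 and are not on the scale of the controls.

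Across the 8 CDDO-Me libraries log2 Malat1 CPM and the log2 intronic share had a Pearson r of 0.80 (exact permutation p = 0.0144, two-sided, adjusted p = 0.131 over 23 relations) and a Spearman rho of 0.88 (p = 0.00724, adjusted p = 0.0555). Without the 2 libraries farthest from the median share this uncentred r was 0.70 (exact permutation p = 0.139, n = 6), so that its passing 0.05 unadjusted rested on those libraries. Centred within genotype, r was 0.92 with an exact permutation p of 0.0017, the smallest that permutation within genotype can give (adjusted p = 0.0200), and it was 0.99 within WT and 0.90 within KO. The centred r without the 2 farthest libraries was 0.98 (exact permutation p = 0.0278 before adjustment, the smallest that 3 libraries of each genotype allow). Neat1 had an r of 0.63 (exact p = 0.0975, adjusted p = 0.283). Of the class shares 4 passed after adjustment in the centred version: antisense genes (r = 0.96, adjusted exact p = 0.0200), transcribed unprocessed pseudogenes (0.90, 0.0399), sense-overlapping genes (0.93, 0.0479) and processed transcripts (0.88, 0.0479). Without the 2 farthest libraries the centred r was 0.99 for antisense genes and 0.88 for transcribed unprocessed pseudogenes (exact permutation p = 0.0278 each, unadjusted), while those of sense-overlapping genes (0.79, exact p = 0.139) and processed transcripts (0.56, exact p = 0.5) no longer passed and rested on those libraries. Uncentred, the 4 had r of 0.86, 0.77, 0.79 and 0.76 with 8 libraries, in the same order, and 0.81, 0.64, 0.53 and 0.35 without the 2, where 0 had an exact p under 0.05. Ribosomal protein mRNA (r = −0.14), the microRNA class (−0.21) and ribozymes (0.41) showed no detectable relation (adjusted exact p = 0.833, 0.833 and 0.646).

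Each gene was then fitted against the intronic share with genotype as a term, giving a slope in log2 units per doubling of the share. With edgeR (quasi-likelihood, Benjamini-Hochberg adjusted over all genes) 9 of 16082 genes were called with an upward slope (0.056%) and 0 with a downward one, at adjusted p from 0.0424 to 0.0477. At an unadjusted p under 0.05 there were 1678 upward (10.4%) and 1201 downward (7.47%). WT CDDO-Me 1, which has the largest share and 99284626 counts against 13809649 to 14907764 in the other WT CDDO-Me libraries, held much of this: without it there were 742 upward (4.73%) and 292 downward (1.86%). The count was unstable: it was 0 without any one of WT CDDO-Me 1, 2, 3 or 4, KO CDDO-Me 2 or KO CDDO-Me 3, 13 without KO CDDO-Me 1 and 1, downward, without KO CDDO-Me 4, and by DESeq2 it was 233 upward and 163 downward. Of the 9, Gm47164 and Gm48309 belong to the classes that make up the share, and 7 do not.

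The 7 called outside those classes included the nuclear lncRNA Firre, with a slope of 1.01 ± 0.12 (SE, edgeR adjusted p = 0.0424) and levels of 43.7, 31.0, 20.7 and 22.3 CPM in WT CDDO-Me 1 to 4 and 25.4, 26.7, 18.6 and 33.7 CPM in KO CDDO-Me 1 to 4. Fos, the immediate early transcription factor, had a slope of 1.56 ± 0.18 (edgeR adjusted p = 0.0424), Mid1, a microtubule-associated ubiquitin ligase, 1.08 ± 0.13 (edgeR adjusted p = 0.0424) and Fbf1, a centriole protein, 2.60 ± 0.35 (edgeR adjusted p = 0.0474). The others were the processed pseudogenes Gm48128 and Gm47036 and the lincRNA Gm48422. Firre, Gm48128, Gm47036 and Gm48422 were also counted as higher in the intron-rich controls. Fos (0.91), Fbf1 (0.74) and Mid1 (−0.21) overlapped between the control sets.

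The direction of the 2 comparisons could be compared gene by gene, because they share no library. Of the 2016 genes higher in the intron-rich controls 1750 had a slope, and 1637 of these (93.5%) had a positive one, beside 48.8% of all genes. Leaving out the classes that make up the share, 1054 of 1143 (92.2%) were positive and 439 (38.4%) had an unadjusted p under 0.05 (10.4% over all genes). Of the 225 lower genes 190 (84.4%) had a negative slope, beside 51.2% of all genes, and 43 (19.1%) had an unadjusted p under 0.05 (7.47% over all genes). Without WT CDDO-Me 1, 956 of 1073 higher genes outside those classes (89.1%) had a positive slope, and 225 had an unadjusted p under 0.05, where the share over all genes was 4.73%. Of 225 lower genes 175 (77.8%) had a negative slope without it, and 8 (3.56%) an unadjusted p under 0.05, beside 1.86% of all genes. Across 15450 genes fitted in both, which are not independent replicates, Pearson's r was 0.51 and Spearman's rho 0.58.

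The lists kept their order in part. Over all genes the edgeR slope had an unadjusted p under 0.05 upward in 10.4% and downward in 7.47%. Detained-intron genes had a median slope of 0.36, with 38 of 39 positive, 23 with an unadjusted p under 0.05 upward and 0 downward. Nuclear lncRNAs had 0.45, with 5 of 16 upward and 0 downward. Ribosomal protein genes had −0.36 with 52 of 77 downward, respiratory chain genes −0.33 with 31 of 76, secretory pathway genes −0.30 with 13 of 36, plasma proteins −0.33 with 6 of 38 and proteasome genes −0.24 with 6 of 31, and 0 upward in each of these. Without WT CDDO-Me 1, a check on the lists added after seeing the data, the medians were 0.25 for detained-intron genes, 0.63 for nuclear lncRNAs, −0.24 for ribosomal protein, −0.29 for respiratory chain, −0.23 for secretory pathway, −0.36 for plasma protein and −0.21 for proteasome genes. The genes with an unadjusted p under 0.05 were then 11 of 39 and 2 of 17 upward in the first 2 lists (4.73% over all genes). In the others 9 of 78, 8 of 76, 0 of 36, 1 of 38 and 2 of 31 were downward (1.86% over all genes). The downward medians were relative to the typical gene: by library totals the median slope of all genes was 0.32, that of ribosomal protein genes −0.03, of respiratory chain genes 0.00, of secretory pathway genes 0.02, of plasma proteins 0.02 and of proteasome genes 0.08, while detained-intron genes had 0.69 and nuclear lncRNAs 0.77. By that scaling 27.3% of all genes had an unadjusted p under 0.05 upward and 0.429% downward, and 2 of 77 ribosomal protein genes, 0 respiratory chain genes and 1 plasma protein gene were downward. Immediate early genes had a median slope of 0.62 with 11 of 29 upward, and 0.72 with 12 of 30 upward without WT CDDO-Me 1. Their median in the controls was −0.19, but 0.08 without WT DMSO 4 and 0.29 by library totals.

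Intronic loci kept their distance from their hosts in these libraries as well. Over 725 pairs the median slope was 0.76 for loci and −0.02 for hosts, and 675 loci (93.1%) had a slope above their host's. The loci are part of the share on which they are regressed, so only the host values are free of it. Gene structure graded the slopes as it did the control difference, with medians of −0.16 in the lowest and 0.09 in the highest bin by exon number and −0.21 and 0.09 by exonic length.

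Whether the set difference was unequal in the 2 genotypes was tested in the 8 controls, with 2 libraries for each genotype and set. With edgeR 0 of 16633 genes had an interaction at an adjusted p under 0.05, 722 (4.34%) had an unadjusted p under 0.05, and DESeq2 called 6. Without WT DMSO 3 edgeR called 566 genes, and it called 0 in each of the other 7 fits that left out 1 library. The fold differences of the sense-intronic share were 3.40 within WT and 3.85 within KO, those of Malat1 with Neat1 4.59 and 5.41, and those of the ribosomal protein share 0.826 and 0.717.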

How the data were processed

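RNA from mouse liver was measured by ribosomal RNA-depleted RNA-seq in 16 libraries, of which 8 controls form the sets compared and 8 from CDDO-Me-treated mice serve for tests. The authors deposited whole-number read counts per gene for 33730 gene IDs. FPKM values were deposited beside them by the authors and equal the count divided by gene length and library total (largest relative deviation 8.7e-07). The processing notes of the submitters name TopHat2 2.1.0, HTSeq 0.6.1p1, cutadapt 1.2.1, CASAVA 1.8.2, DESeq2 and the build GRCm38.p5, without roles or order. The strand setting and the handling of reads with several matches are not given in the sources at hand. The count table holds 0 columns of other samples. Gene types, structure and coordinates came from GENCODE M21 on GRCm38, matched by ID for 33629 genes and missing for 101.

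Counts were analysed with edgeR 4.0.16 in R 4.3.3 (filterByExpr, TMM, quasi-likelihood fit), with genotype as a term. The set contrast gave log2 fold changes and standard errors, and a gene was counted where the absolute log2 fold change was at least 1 and the sets did not overlap. The slope was fitted in the 8 CDDO-Me libraries on the centred log2 share of sense-intronic and TEC counts, with 5 residual degrees of freedom, and the interaction of genotype and set in the 8 controls, with 4. Relations of single values were tested by exact two-sided permutation of the library pairings. P-values were Benjamini-Hochberg adjusted over all genes tested, or over the 23 relations. The fits were tested on simulated data. Alternatives used DESeq2 1.42.0, limma 3.58.1 on log2(FPKM + 1) and log2(FPKM + 0.1) for genes with a mean FPKM of at least 0.5, other scalings, no filter, thinned counts and each library left out. Figures and summaries used Python 3.11.15, pandas 2.3.3, numpy 2.4.6, scipy 1.17.1 and matplotlib 3.10.9.

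Among genes counted with a mean of at least 10 CPM, an established symbol and the same direction in both genotypes, the text names the 10 protein-coding genes and the 6 noncoding genes of largest difference each way, the 5 sense-intronic or TEC genes of highest level, up to 4 counted members of each list (or the 2 of highest level where 0 were counted), and the genes called in the slope test. The small RNAs, the intronic pairs, the microRNA hairpins and the genes called in the slope test without an established symbol were chosen after their values were seen, as were Kcnq1ot1, Tug1, Gm26917 and Nqo1. The members and lists were chosen with earlier results of these data known. Totals of 12002317 to 26948425 counts in the controls limit the precision for genes of a few CPM.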

Additional observations from a re-analysis of the deposited data

Results flagged for a closer look

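In 128 groups of 4 libraries (class shares and list scores within each set), 7 had a library whose gap to its nearest neighbour, divided by the range of the group, exceeded Dixon's critical value for 4 samples. Chance flags about 1 in 20 such groups, and all 7 were among the other controls.

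WT DMSO 3 was the library in 5 of them. Its protein-coding share was 86.8% of counts, against 93.7% in the nearest library. Its sense-intronic share was 0.0474%, against 0.0334%, and so was the nearest of the other controls to the intron-rich libraries. Its nuclear ribosomal RNA took 0.560% of counts, against 0.0368%, and its mitochondrial ribosomal RNA 7.25%, against 0.873%. Its bile acid gene score was 0.29, against −0.06.

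WT DMSO 4 was the library in the other 2. Its acute phase score was 1.82, against 0.03 in the nearest library, and its neutrophil marker score 0.91, against −0.10. A score is the mean over a list's genes of log2(CPM + 1) minus the gene's mean over the 8 controls.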

How the results depend on the processing

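No paired analysis was possible because the intron-rich set holds the libraries numbered 1 and 2 and the other controls those numbered 3 and 4 of each genotype. With scaling to library totals, chosen after seeing the data, 3629 genes were higher and 5 lower, against 2016 and 225 in the report, and the slope test called 1324 genes. An adjusted p under 0.05, planned as an ordering of genes and not as a test, would take in 3535 higher and 3428 lower genes; since the sets were drawn from these values, no call is read from it. With no filter on low counts 370 genes were lower, 210 had an interaction, 60 a slope, and the gap between exon-number bins was 0.27. With limma on log2(FPKM + 1) and log2(FPKM + 0.1), 3 and 6 genes were lower and 563 and 420 had a slope. DESeq2 called 6 interactions and 396 slopes. WT libraries alone gave 631 lower genes, KO libraries alone 515, and leaving out WT DMSO 4 and KO untreated 1 together, chosen after seeing the data, 95. Leaving out 1 library at a time gave 2000 to 2430 higher and 148 to 515 lower genes (148 without KO untreated 1, 515 without KO untreated 2, 487 without WT DMSO 3 and 360 without KO untreated 4), 0 to 566 interactions (566 without WT DMSO 3) and 0 to 13 slopes. The slope test called 1 gene with Malat1 and Neat1 as the index and 0 without the genotype term. The correlation of Malat1 with the share was 0.65 with sense-intronic genes only, and 0.77 to 0.89 with 1 library left out. The causes of these changes were not tested. The number of lists whose median lay at least 0.5 from that of all genes was 23, and 22 to 26 under each alternative run. The intron-rich libraries, being shallower, limit what can be said of genes of a few CPM.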
